A study of Homo sapiens
Mus musculus with 8 samples.

Results

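The cytosolic tRNA synthetase genes examined here were 36 genes, 18 of the 27998 mouse genes and the 18 with the same symbols in capitals of the 32738 human genes in the count tables: Aars, Cars, Dars, Eprs, Gars, Hars, Iars, Kars, Lars, Mars, Nars, Qars, Rars, Sars, Tars, Vars, Wars and Yars. The rule that picks them uses gene names and no measured value, although the set was taken up with earlier results of these data known, and the mouse and the human genes were examined apart. Each was measured in a droplet experiment in which 4 lymphocyte cell lines were mixed in equal parts and sequenced as single cells with 3 kits of the 10x Genomics Chromium system. EL4 is a mouse T cell lymphoma line, IVA12 a mouse B lineage line, Jurkat a human T cell leukemia line and TALL-104 (TALL104 in the labels) a human cytotoxic T cell leukemia line that is grown with interleukin 2. All are established lines without an added gene or drug, each grown in a medium of its own, so line and medium cannot be told apart. The 3′ v2 kit gave 1 library used here (replicate 2), the 5′ v1 kit gave 2 and the 3′ v3 kit gave 4. Both 5′ v1 libraries came from one mixture of cells, 3′ v3 replicates 1 and 3 (the first preparation) from a second mixture and 3′ v3 replicates 2 and 4 (the second preparation) from another, so kit and mixture cannot be told apart. Between the preparations, p-values measure the spread between libraries of the same mixture and none between mixtures. In the other tests, too, libraries of one mixture count as separate.

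Aminoacyl-tRNA synthetases join each amino acid to its tRNA, which gives the ribosome its substrates, and every growing cell needs the whole set. They fall into class I and class II by the fold of their catalytic domain. In animals 8 of the members here (Dars, Eprs, Iars, Kars, Lars, Mars, Qars and Rars) sit in the multisynthetase complex, which the scaffold proteins Aimp1, Aimp2 and Eef1e1 hold together. Eprs is a fusion of the glutamyl and the prolyl enzyme, and Kars and Gars also supply the mitochondrial lysyl and glycyl enzymes, whereas most mitochondrial synthetases have genes of their own (Aars2, Lars2 and others). Transcription of many cytosolic synthetase genes is raised by ATF4, the factor of the amino acid and stress response, and WARS, the tryptophanyl enzyme, is also an interferon-induced gene.

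A droplet barcode counted as a cell with at least 1000 unique molecular identifiers (UMIs, counted transcripts), over 80% of them from one species and under 10% mitochondrial. A mouse cell was taken as EL4 where Lgals1, S100a6 and Perp together had at least 5 times the UMIs of Epcam, Cd24a, Ctss and Ckap4, and as IVA12 in the reverse case. A human cell was taken as TALL-104 with NKG7, CST7 and CD8A at 0.1% of its UMIs or more and as Jurkat with under 0.02%. The 7 libraries held 24790710 to 251164949 UMIs and gave 10200 EL4, 5067 IVA12, 7334 Jurkat and 2285 TALL-104 cells. Levels are given as CPM, UMIs scaled to 1000000 for each sum of cells of a line in a library, with TMM scaling, which matches libraries on the bulk of their genes. Markers that the rule did not use followed the names in part. The T cell genes Cd3d and Thy1 had medians of 496 and 658 CPM in EL4 and 2.71 and 4.52 in IVA12, and Cd79b was at 224 in IVA12 and 2.46 in EL4. The B cell gene Cd79a was near 0 in IVA12 (median 0.198). PRF1, the perforin gene, was at 293 in TALL-104 and 4.18 in Jurkat, while CD8B was near 0 in TALL-104 (median 0.518) and CD4 near 0 in Jurkat (median 1.12). The libraries of one kit shared at most 23 cell barcodes.

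The members were read well in 3 of the lines and thinly in the fourth. The median EL4 cell held UMIs of 12 to 16 of the 18 members, depending on the library, the median IVA12 cell 15 to 17 and the median Jurkat cell 10 to 13, against 1 to 3 in TALL-104. TALL-104 cells had a median of 1970 to 2786 UMIs, Jurkat cells 9834 to 18945. The TALL-104 sums of 5′ v1 replicates 1 and 2 held only 286 and 118 member UMIs, from 69 and 29 cells, where the EL4 sums held 16407 to 168697. Mouse UMIs made up a median of 15.3% of a TALL-104 cell in 3′ v3 replicate 3 and 0.92% to 6.51% in the other libraries, and 5 genes listed as Jurkat markers (CD28, LEF1, SOX4 and, both near 0 in Jurkat here, RAG1 and CD4) summed to 35.9 to 195 CPM in TALL-104 against 1069 to 2797 in Jurkat. What RNA of the other lines adds to the TALL-104 levels was not tested. In the second 3′ v3 preparation the mitochondrial limit kept only 48.1% and 44.2% of Jurkat and 67.5% and 63.7% of TALL-104 cells (replicates 2 and 4). Over all 18 members and without TMM, IVA12 had 2111 to 3608 CPM, EL4 1245 to 2684, Jurkat 1212 to 2067 and TALL-104 953 to 1462.

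The first question was whether the lines of a species differ in these genes. Levels of most cytosolic synthetases were lower in EL4 than in IVA12 cells of the same library. Of 18 members, all of which passed the filter on low counts, 12 were called lower in EL4, 1 was called higher and 5 were not called (adjusted p under 0.05 over 11819 mouse genes in edgeR's quasi-likelihood test with the library as a block). Of all those genes, 37% were called lower and 39.7% higher. The median log2 fold change of the members was -0.36, against 0.03 over all genes tested, and scaling by plain totals moved the all-gene median by -0.12 and left 13 members lower and 1 higher. Of the 12, 11 were lower in EL4 in each of the 7 libraries, Hars, the histidyl enzyme, being the exception with 5 of 7.

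Tars, the threonyl enzyme of class II, was furthest apart. Its level ran from 44.8 to 156 (median 131) CPM over the 7 EL4 sums and from 118 to 314 (median 275) over the IVA12 sums (log2 fold change -1.12, SE 0.09, adjusted p = 6.48e-07), a 2.17-fold difference. The ranges overlapped, both lines being lowest with the 5′ v1 kit, but within each library IVA12 was above EL4. Complex members came next. Eprs, the glutamyl-prolyl enzyme, ran from 112 to 232 (median 186) in EL4 and from 249 to 488 (median 349) in IVA12 (log2 fold change -0.99, SE 0.08, adjusted p = 5.32e-07). With TMM scaling these ranges did not overlap. Ranges without TMM were not compared, and how many of all genes lay apart was not counted. Lars, the leucyl enzyme, ran from 40.9 to 136 (median 123) and from 104 to 234 (median 200.3) (log2 fold change -0.93, SE 0.12, adjusted p = 4.14e-05). Mars, the methionyl enzyme, ran from 16.5 to 62 (median 37.8) and from 35 to 109 (median 62.7) (log2 fold change -0.91, SE 0.09, adjusted p = 5.98e-06). Of the 8 complex members 5 were lower in EL4, the other called ones being Qars, the glutaminyl enzyme (log2 fold change -0.78), and Rars, the arginyl enzyme (-0.67). Dars (-0.24, adjusted p = 0.163), Kars (-0.06, adjusted p = 0.814) and Iars (0.00, adjusted p = 0.99), which charge aspartate, lysine and isoleucine, did not pass the test.

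Outside the complex, the class I enzymes Vars (valine, -0.54), Cars (cysteine, -0.39) and Yars (tyrosine, -0.26) and the class II enzymes Nars (asparagine, -0.49), Hars (-0.33) and Gars (glycine, -0.22) were lower in EL4 on the log2 scale. Wars, the tryptophanyl enzyme, was the one member higher in EL4. It ran from 30.3 to 49.4 (median 36.6) in EL4 and from 22.8 to 35.4 (median 29.4) in IVA12 (log2 fold change 0.38, SE 0.08, adjusted p = 0.00141) and was higher in EL4 in 7 of 7 libraries. Aars, the alanyl enzyme (0.07, adjusted p = 0.476), and Sars, the seryl enzyme (-0.15, adjusted p = 0.0796), were not called. The Hars call was lost without either 5′ v1 library (-0.24 and -0.23, adjusted p = 0.114 and 0.105) and without 3′ v3 replicate 1 or 3 (-0.35 and -0.34). Without the replicate block, Gars and Hars were not called (adjusted p = 0.097 and 0.16).

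**Figure D1:**
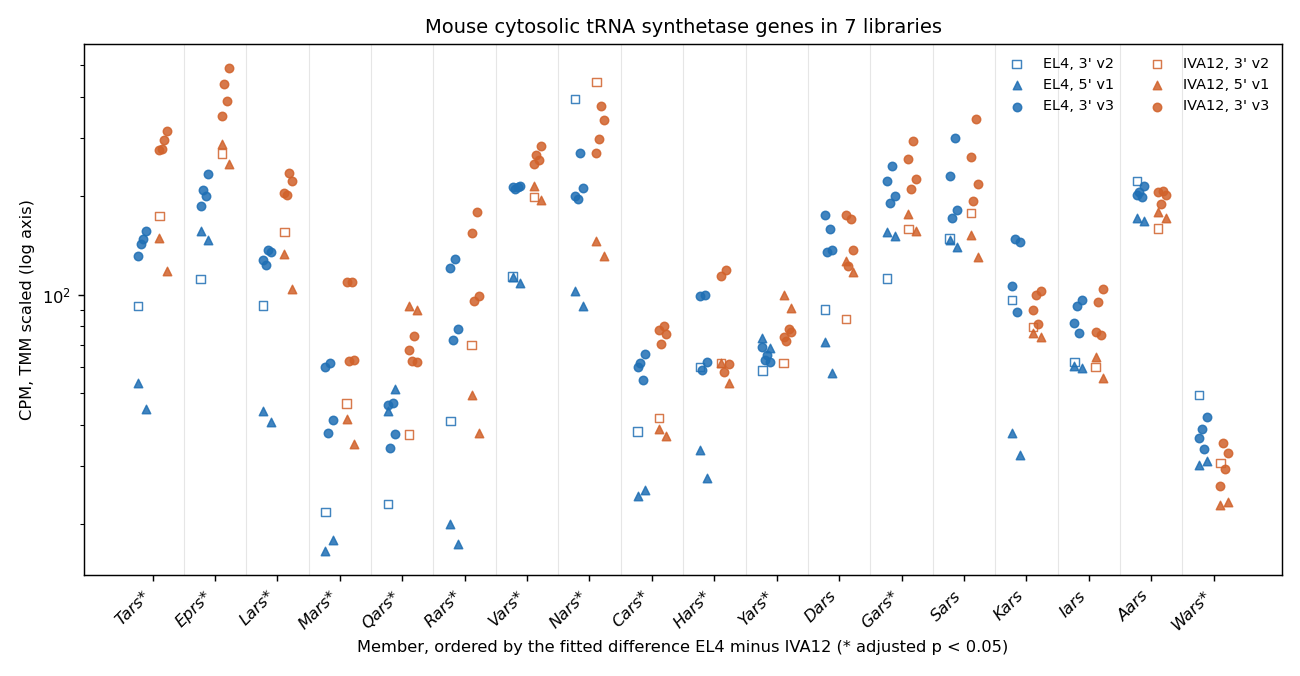
Level of the 18 mouse members (CPM, TMM scaled, log axis) in EL4 (blue) and IVA12 (orange), 1 point for each of the 7 libraries, with members ordered by the fitted difference and an asterisk where adjusted p was under 0.05. The orange points of Tars and Eprs lie above the blue points of the same kit, and 5′ v1 points (triangles) lie low for many members in EL4.

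Related genes moved between the mouse lines as follows, as log2 fold changes of EL4 over IVA12. Over all genes tested 39.7% were called higher and 37% lower in EL4. All 3 scaffold genes of the complex were lower in EL4: Eef1e1 (-1.27), Aimp2 (-0.77) and Aimp1 (-0.73). The phenylalanyl subunits Farsa (-0.64) and Farsb (-0.26) were lower too, and Tarsl2, a second threonyl enzyme, was higher (0.50). Of the mitochondrial synthetases 4 higher and 7 lower of 17 tested were called, among them Tars2 (-1.71), Ears2 (-1.05) and Lars2 (-1.0). Among genes that ATF4 is known to raise, apart from the synthetases, the count was 4 higher and 14 lower of 26 tested. The cystathionine lyase gene Cth (-5.54), the proline gene Pycr1 (-2.39) and the serine gene Psph (-1.79) were lower in EL4, and the cystine carrier Slc7a11 was higher (2.52). The genes that regulate ATF4 gave 2 higher and 4 lower of 8 tested, led by the kinases Eif2ak4 (1.15), Eif2ak3 (-0.71) and Eif2ak2 (0.70) and the initiation factor Eif2s1 (-0.70). Interferon response genes gave 4 higher and 3 lower of 8 tested, with Ifit1 (-5.01) and Isg15 (-4.12) lower and Gbp2 (2.41) and Psmb8 (1.75) higher in EL4.

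The gap between EL4 and IVA12 was not the same with each kit. Of 18 members, 8 had a line difference that itself changed with the kit, in each case with EL4 nearer to or above IVA12 with 3′ v3, and 0 were called in the other direction (edgeR, 1 at unadjusted p under 0.05, 1 by DESeq2). Of 13203 mouse genes 16.2% were called in that direction and 13.8% in the other. The members' median was 0.26, against -0.01 over all genes tested, and plain totals moved the all-gene median by 0.15 and gave 11 and 0 calls. Of the 8 members called, 5 belong to the complex: Kars, Dars, Rars, Lars and Mars.

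Kars, the lysyl enzyme, changed its order. EL4 held 38 and 32.4 CPM with 5′ v1 where IVA12 held 76.3 and 74.1. With 3′ v3, replicates 1 to 4, EL4 held 106, 148, 88.2 and 145 and IVA12 90.0, 99.4, 81.3 and 103. EL4 was thus below IVA12 in both 5′ v1 libraries (mean log2 difference -1.10 ± 0.13 (SD, n = 2)) and above it in all 4 3′ v3 libraries (0.36 ± 0.21 (SD, n = 4)), as well as in the single 3′ v2 library (96.3 and 79.6). The change of the difference was 1.45 on the log2 scale (SE 0.14, adjusted p = 9.92e-05).

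Dars, the aspartyl enzyme, and Hars differed between the lines with 5′ v1 but hardly with 3′ v3. The EL4 minus IVA12 difference of Dars was -0.91 ± 0.14 (SD, n = 2) with 5′ v1 and 0.01 ± 0.10 (SD, n = 4) with 3′ v3 (change 0.92, adjusted p = 0.000226). That of Hars was -0.92 ± 0.06 (SD, n = 2) and -0.11 ± 0.14 (SD, n = 4) (change 0.80, adjusted p = 0.000816). Rars went from -1.21 ± 0.14 (SD, n = 2) to -0.39 ± 0.06 (SD, n = 4) (change 0.83, adjusted p = 0.000364) and Lars from -1.47 ± 0.17 (SD, n = 2) to -0.72 ± 0.04 (SD, n = 4) (change 0.75, adjusted p = 0.000452). These 2 stayed below IVA12 with both kits. Vars (change 0.57), Tars (0.42) and Mars (0.41) were the smallest of the called ones. The Tars call was lost without 5′ v1 replicate 1 (0.38, adjusted p = 0.0847). The Mars call was lost without 5′ v1 replicate 1 (0.21) or 2 (0.58) or 3′ v3 replicate 2 (0.40), 3 (0.43) or 4 (0.36). Eprs, by contrast, was -0.82 ± 0.08 (SD, n = 2) with 5′ v1 and -1.0 ± 0.08 (SD, n = 4) with 3′ v3, and its change of -0.17 (SE 0.09) did not pass the test (adjusted p = 0.173).

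**Figure D2:**
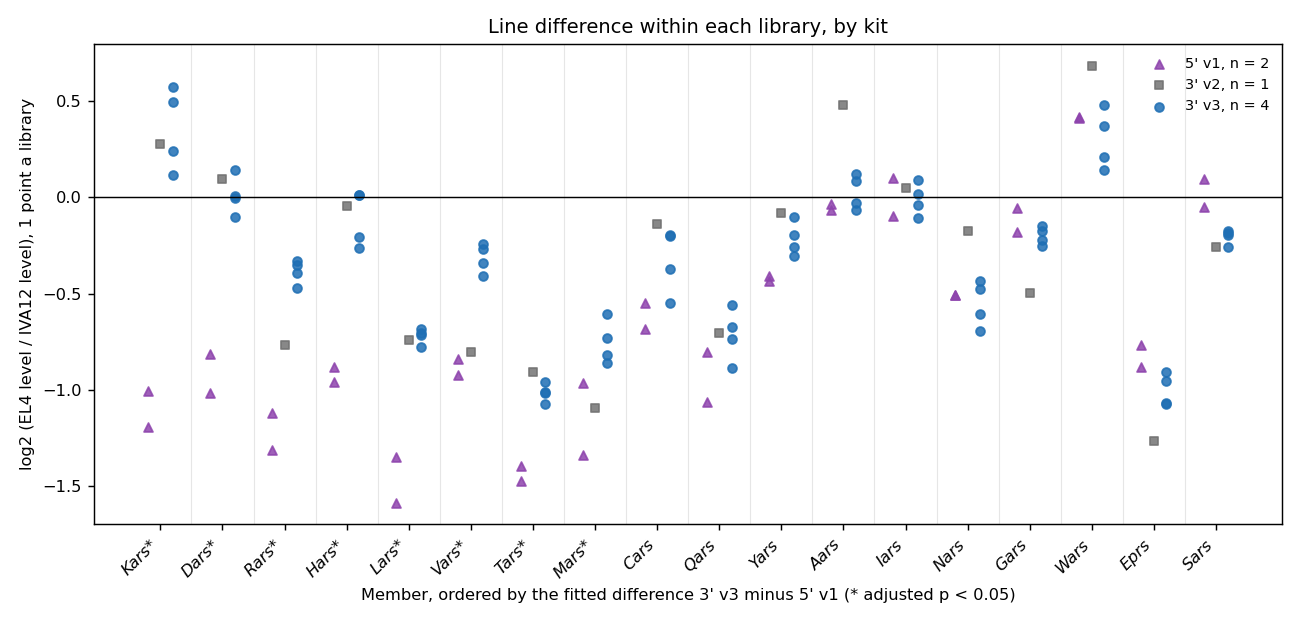
Log2 ratio of the EL4 to the IVA12 level of each mouse member within each library, by kit: 5′ v1 (purple triangles, 2 libraries), 3′ v2 (grey squares, 1 library) and 3′ v3 (blue circles, 4 libraries). Members are ordered by the change between 3′ v3 and 5′ v1, with an asterisk where its adjusted p was under 0.05. Kars lies below 0 with 5′ v1 and above 0 with 3′ v3, and Eprs lies low with every kit.

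Markers of the other mouse line also moved with the kit. Of all genes tested, 4.07% were called higher with 3′ v3 in IVA12 and 19.1% in EL4. In IVA12 cells 3 of 5 EL4 markers outside the assignment rule (Cd3d, Cd3e and Thy1 of Cd3d, Cd3e, Cd3g, Lck and Thy1) were higher with 3′ v3. Their summed level was 4.27 and 2.97 CPM with 5′ v1 and 8.93 to 38.6 with 3′ v3, against 1188 to 2146 in EL4 itself over all libraries. In EL4 cells 2 of the 3 IVA12 markers tested (Cd79b and Ebf1, not Cd74) were higher with 3′ v3. The whole list of 6, which also held Cd79a and H2-Aa, summed to 3.43 and 3.31 with 5′ v1 and 3.53 to 19.4 with 3′ v3, against 225 to 521 in IVA12. Within either line these levels were a small part of those in the other line with both kits.

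The lists of related genes also held such differences between the mouse lines, given as log2 changes of the EL4 minus IVA12 difference from 5′ v1 to 3′ v3. Of all 13203 genes tested, 16.2% were called higher and 13.8% lower. Of the ATF4 targets 4 higher and 18 lower of 26 tested were called, with Nupr1 (-3.02), Trib3 (-2.74) and Slc7a11 (-2.56) negative and Cth (2.91) positive. Most of the called targets had the opposite sign to the 8 called members, and the part of ATF4 in either was not tested. The regulators gave 1 higher and 2 lower of 8 tested, which were Ppp1r15a (-1.28), Atf4 (-0.76) and Eif2s1 (0.67). With plain totals they gave 3 higher and 2 lower. The mitochondrial synthetases gave 9 higher and 1 lower of 17 tested, among them Lars2 (1.28), Vars2 (1.07) and Aars2 (0.88). The scaffold gene Aimp2 (1.10) and the subunits Farsa (0.85) and Farsb (0.60) were called as well, as were the interferon response genes Psmb9 (0.84) and Tap1 (0.63). With plain totals all 3 scaffold genes, 4 interferon response genes and 11 mitochondrial synthetases were higher, and 0 of these lists lower.

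Between the human lines, 10 of 18 members were called higher in Jurkat than in TALL-104, 8 were not called and 0 were called lower (edgeR, 0 at unadjusted p under 0.05, 0 by DESeq2). Of 9581 human genes tested, 42% were called higher and 24.3% lower in Jurkat, so a large share of all genes was called in the same direction as the 10 members. With plain totals 9 members were called higher and 0 lower, and in cells over 95% human 8 and 0. The members' median log2 fold change was 0.50, against 0.26 over all genes tested. Of the 10 called members, 8 were higher in Jurkat in each of the 7 libraries. The exceptions were QARS (6 of 7) and WARS (5 of 7). Of the 8 complex members 6 were called, beside 2 of 6 class II and 2 of 4 class I members outside the complex.

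IARS, the isoleucyl enzyme, ran from 108 to 187 (median 144) CPM in Jurkat and from 37.7 to 105 (median 64.7) in TALL-104 (log2 fold change 1.22, SE 0.17, adjusted p = 1.71e-06), and these TMM-scaled ranges narrowly missed each other. RARS, the arginyl enzyme, ran from 36.9 to 104 (median 48.8) and from 18.8 to 44.8 (median 28.3) (log2 fold change 1.10, SE 0.16, adjusted p = 2.57e-06). GARS, the glycyl enzyme, ran from 134 to 149 (median 138) and from 35.5 to 92.5 (median 71.8) (log2 fold change 1.01, SE 0.15, adjusted p = 3.91e-06), again without overlap after TMM scaling. LARS, the leucyl enzyme, ran from 106 to 295 (median 189) and from 62.8 to 132 (median 88) (log2 fold change 1.00, SE 0.15, adjusted p = 3.3e-06). VARS (1.00), KARS (0.88), DARS (0.82), QARS (0.77), WARS (0.54) and TARS (0.46), for valine, lysine, aspartate, glutamine, tryptophan and threonine, were the other members higher in Jurkat. VARS had 0 UMIs in the TALL-104 sum of the 3′ v2 library, which allows up to 24.9 CPM without TMM scaling (3 UMIs of that sum), and 1 UMI in each 5′ v1 sum. The 8 members that were not called had log2 fold changes from -0.16 (YARS, SE 0.15) to 0.28 (MARS, SE 0.18).

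Some of these calls were lost without a single library or under another setting. TARS was not called without 3′ v3 replicate 1 (0.38, adjusted p = 0.0532). WARS was not called without 3′ v2 replicate 2 (0.50) or 3′ v3 replicate 1 (0.36), 2 (0.53) or 3 (0.39), with plain totals (0.47) or with DESeq2 (0.40), and its TALL-104 levels rest on 1 to 22 UMIs a library. QARS was not called among cells over 95% human (0.45, adjusted p = 0.134). For CARS, the cysteinyl enzyme, the line difference differed between kits (1.93, SE 0.33, adjusted p = 0.00786). Jurkat held 29.2 and 26.5 CPM with 5′ v1 and 49.2, 86, 46.5 and 83.8 with 3′ v3. TALL-104 held 92.5 and 89.7 with 5′ v1, from 22 and 10 UMIs, and 41.7, 64, 46.6 and 66.5 with 3′ v3. Jurkat was below TALL-104 with 5′ v1 and close to or above it with 3′ v3. The call was lost without 5′ v1 replicate 1 (1.98, adjusted p = 0.403) or 2 (1.89, adjusted p = 0.0908). It was the 1 call among 18 members, at 0.782% of all genes called in that direction and 0.293% in the other.

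**Figure D3:**
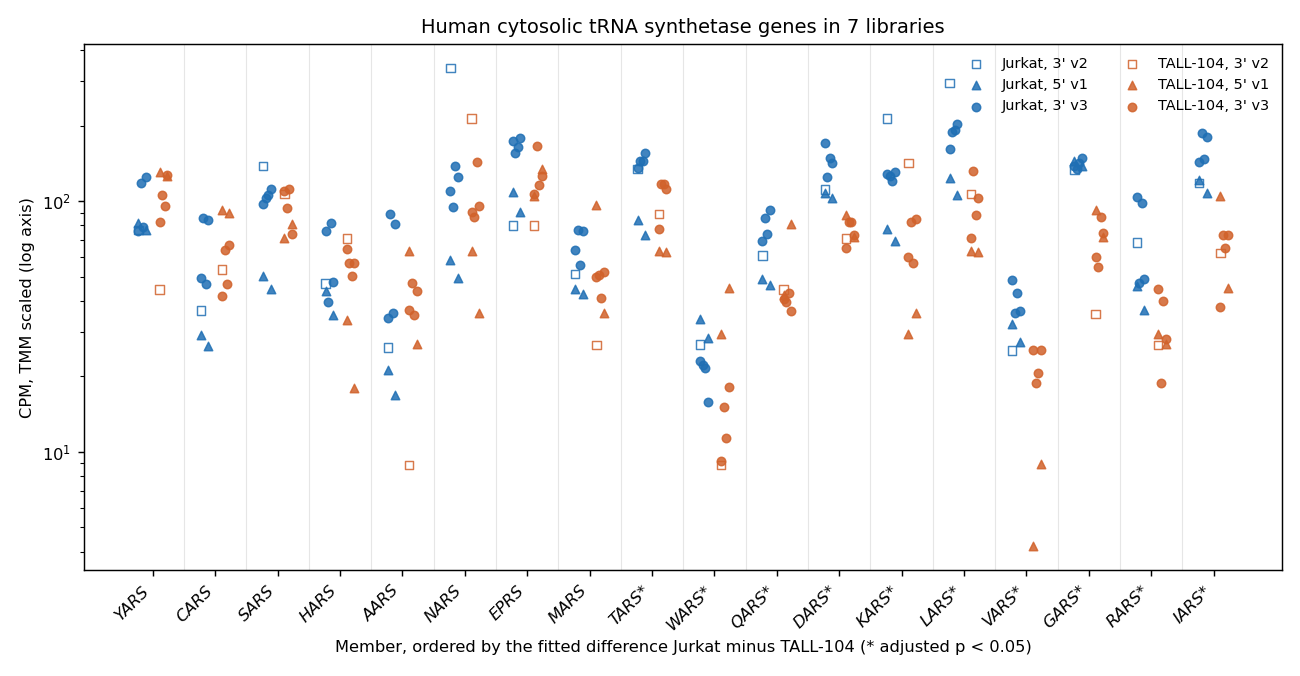
Level of the 18 human members (CPM, TMM scaled, log axis) in Jurkat (blue) and TALL-104 (orange), 1 point for each of the 7 libraries, in the order of the fitted difference and with an asterisk where adjusted p was under 0.05. With this scaling IARS and GARS show no overlap between the lines, and the VARS count of 0 in the 3′ v2 library is not drawn.

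Of the related human genes, as log2 fold changes of Jurkat over TALL-104, the scaffold genes AIMP2 (1.76) and EEF1E1 (1.69) and the phenylalanyl subunits FARSA (1.76) and FARSB (1.62) were higher in Jurkat, AIMP1 (-0.11) was not called and TARSL2 (-0.97) was lower. Mitochondrial synthetases gave 11 higher and 0 lower of 16 tested, led by VARS2 (1.85), MARS2 (1.60), NARS2 (1.14) and EARS2 (1.13). The ATF4 targets gave 8 higher and 4 lower of 22 tested, where 42% and 24.3% of all genes were called. Their median log2 fold change was 0.23, against 0.26 over all genes tested. The serine and proline synthesis genes PHGDH (2.26), PSAT1 (2.16) and PYCR1 (2.13) were higher in Jurkat, and DDIT3, the stress factor CHOP, was lower (-2.97). Of the ATF4 regulators (3 higher and 2 lower of 8 tested), the phosphatase subunit PPP1R15A (-2.39) and the kinase EIF2AK3 (-1.32) were lower and the kinases EIF2AK4 (1.5) and EIF2AK1 (0.98) higher in Jurkat. Interferon response genes gave 1 higher and 5 lower of 7 tested, with GBP2 (-7.29), IRF1 (-1.02) and TAP1 (-0.78) higher in TALL-104.

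The second question was how far the measured levels differed between the kits, which were run on different mixtures of cells. In EL4 most synthetases had higher levels with the 3′ v3 kit than with the 5′ v1 kit. Of 18 members 11 were called higher with 3′ v3, 7 were not called and 0 were called lower (edgeR, 0 at unadjusted p under 0.05, 0 by DESeq2). Among all 12129 genes tested, 19.1% were higher and 16.7% lower. The members' median log2 fold change was 1.05, against 0.07 over all genes tested. With TMM scaling, all 4 3′ v3 libraries lay above both 5′ v1 libraries in EL4 for 16 of 18 members, Qars and Yars being the exceptions. How many of all genes lay apart in this way was not counted, so that count is descriptive only. Of the 8 complex members 6 were called.

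Rars showed the largest difference in EL4. It was at 20 and 17.5 CPM in the 5′ v1 pair and 120.4, 72.6, 129 and 78.4 in the 3′ v3 libraries, replicates 1 to 4 (log2 fold change 2.42, SE 0.31, adjusted p = 0.00204), a 5.33-fold difference. Kars was at 38 and 32.4 with 5′ v1 and 106, 148, 88.2 and 145 with 3′ v3 (log2 fold change 1.79, SE 0.27, adjusted p = 0.00336). Lars was at 44.2 and 40.9 with 5′ v1 and 127, 123, 136 and 135 with 3′ v3 (log2 fold change 1.61, SE 0.15, adjusted p = 0.000983), and Mars at 16.5 and 17.9 with 5′ v1 and 60.3, 37.8, 62 and 41.6 with 3′ v3 (log2 fold change 1.55, SE 0.26, adjusted p = 0.00484). None of these 4 members of the complex overlapped between kits. Tars (1.55), Hars (1.38), Cars (1.29) and Dars (1.22) followed, with Nars, Vars and Iars the other called ones. Aars, Gars, Eprs, Sars, Wars, Yars and Qars were not called, and the last of these had the lowest log2 fold change, -0.22 (SE 0.18).

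In IVA12 the same comparison called 5 members higher with 3′ v3 and 0 lower (edgeR, 1 at unadjusted p under 0.05, 1 by DESeq2), against 4.07% and 3.44% of 11922 genes. The members' median was 0.59, against 0.09 over all genes tested. Rars was again first, at 49.6 and 37.9 with 5′ v1 and 154, 95.3, 178 and 98.6 with 3′ v3 (log2 fold change 1.59, SE 0.33, adjusted p = 0.0361). Nars, the asparaginyl enzyme, was at 146 and 131 with 5′ v1 and 269, 296, 376 and 340.3 with 3′ v3 (log2 fold change 1.21, SE 0.22, adjusted p = 0.0231). Tars was at 149 and 118 with 5′ v1 and 275, 277, 296 and 314 with 3′ v3 (log2 fold change 1.12, SE 0.20, adjusted p = 0.0222). In each of these the kits did not overlap. Cars, at 39.1 and 37.1 with 5′ v1 and 77.9, 70.9, 80.1 and 76 with 3′ v3 (log2 fold change 1.00, SE 0.17, adjusted p = 0.0174), and Lars (0.86) were also called, and the remaining 13 members were not.

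In Jurkat 7 members were called higher with 3′ v3 and 0 lower (edgeR, 1 at unadjusted p under 0.05, 0 by DESeq2), against 9.09% and 4.97% of 14025 genes. The members' median was 0.73, against 0.21 over all genes tested, and plain totals moved the all-gene median by -0.14 and left 3 calls. A minimum of 2000 UMIs a cell and a limit of over 95% human UMIs left 2 each, CARS and SARS in both cases. CARS was at 29.2 and 26.5 with 5′ v1 and 49.2, 86, 46.5 and 83.8 with 3′ v3 (log2 fold change 1.23, SE 0.32, adjusted p = 0.0449). SARS, the seryl enzyme, was at 50.5 and 44.6 with 5′ v1 and 97.4, 103, 106 and 112 with 3′ v3 (log2 fold change 1.14, SE 0.19, adjusted p = 0.0113). NARS was at 58.2 and 49.3 with 5′ v1 and 110.0, 94.9, 138 and 125 with 3′ v3 (log2 fold change 1.13, SE 0.23, adjusted p = 0.0217). These 3 did not overlap between kits. TARS, at 84.4 and 73.1 with 5′ v1 and 136, 145, 144 and 156 with 3′ v3 (log2 fold change 0.88, SE 0.19, adjusted p = 0.0272), KARS (0.78), EPRS (0.75) and QARS (0.75) completed the calls. The log2 fold change of GARS was 0.00 (SE 0.18), and that of WARS -0.59 (SE 0.21, adjusted p = 0.101). In TALL-104 no member was called in either direction (edgeR, 4 higher and 1 lower at unadjusted p under 0.05, 0 by DESeq2), at 3.69% and 1.73% of 8055 genes. Its standard errors ran from 0.33 (YARS) to 0.77 (VARS) on the log2 scale. The members' median was 0.00, against 0.23 over all genes tested, with 9 of 18 log2 fold changes above 0, and plain totals moved its all-gene median by -0.23. Markers of the other human line moved with the kit too. The 5 TALL-104 markers summed to 6.48 and 6.47 in Jurkat cells with 5′ v1 and 12 to 17.8 with 3′ v3, 1 of 3 tested being higher. The 5 Jurkat markers summed to 63.1 and 35.9 in TALL-104 cells and 86.6 to 163, 1 of 2 tested being higher. Their part in the member values was not tested.

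These counts depended on the pair of 5′ v1 libraries. Without 5′ v1 replicate 1 or 2, where the library left is assumed to vary like the 3′ v3 libraries, the members called higher were 6 and 4 in EL4, 0 and 0 in IVA12 and 0 and 0 in Jurkat. Rars, Lars, Tars and Cars in EL4 were called in both cases. The IVA12 count was 3 without 3′ v3 replicate 1, and the Jurkat count 3, 4 and 4 without 3′ v3 replicates 2, 3 and 4. Within a single 3′ v3 preparation more was called in EL4, IVA12 and Jurkat. The first preparation against 5′ v1 gave 14 members higher and 0 lower in EL4 (35.7% and 30.4% of all genes tested), 14 and 2 in IVA12 (33.3% and 21%), 15 and 1 in Jurkat (34.3% and 25.3%) and 1 and 2 in TALL-104 (13.5% and 6.07%). The second gave 16 members higher and 1 lower in EL4 (35.8% and 34.7% of all genes tested), 13 and 2 in IVA12 (33% and 32%), 13 and 1 in Jurkat (41.7% and 25.3%) and 3 and 0 in TALL-104 (23.8% and 16.2%). The shares of all genes called rose as well.

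**Figure D4:**
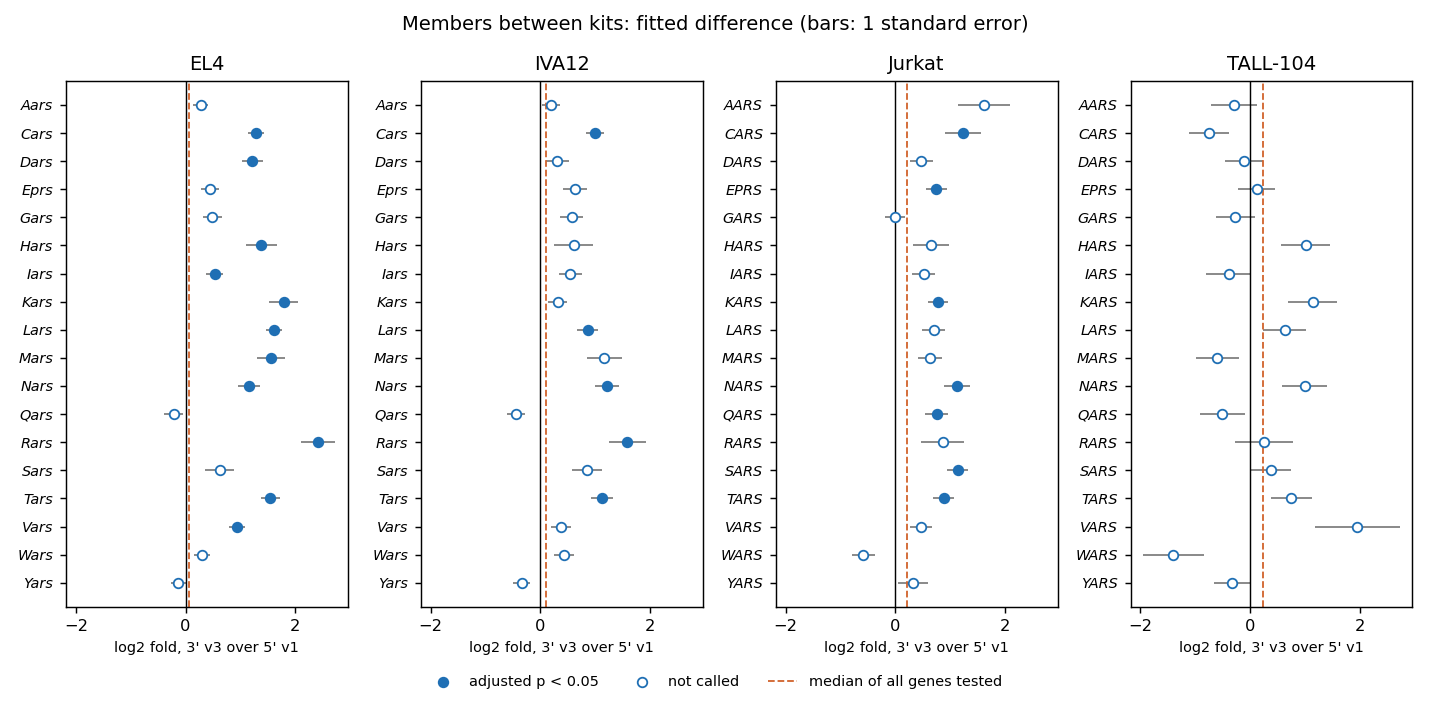
Fitted log2 fold change of 3′ v3 over 5′ v1 for the 18 members in each line, with bars of 1 standard error. Filled points had an adjusted p under 0.05, the solid line marks 0 and the dashed line the median of all genes tested. Most points lie right of the dashed line in EL4, IVA12 and Jurkat, and the bars of TALL-104 are the widest.

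The related genes moved both ways between the kits. In EL4 the scaffold genes Aimp2 (2.25) and Aimp1 (0.97) and the subunits Farsa (1.67) and Farsb (0.87) were higher with 3′ v3 on the log2 scale, and the mitochondrial synthetases gave 7 higher and 1 lower of 17 tested, with Aars2 (1.07) and Rars2 (1.06) higher and Lars2 lower (-1.59). The ATF4 targets in EL4 gave 4 higher and 14 lower of 26 tested, where 19.1% and 16.7% of all genes were called. Nupr1 (-2.59), Chac1 (-2.48) and Atf5 (-2.12), which belong to the stress response, were lower with 3′ v3, and Cth was higher (3.26). Among the regulators (1 higher and 3 lower of 8 tested), Atf4 itself (-0.73), Ppp1r15a (-0.73) and Eif2ak3 (-1.10) were lower and Eif2s1 (1.21) higher, where plain totals gave 1 higher and 1 lower. Of the interferon genes 1 of 8 was called, Gbp2 (-1.32). In IVA12 the calls in these lists were Lars2 (-2.86), Pycr1 (-0.69), Stc2 (0.68) and Trib3 (0.67), the ATF4 targets going from 2 higher and 1 lower to 1 and 2 with plain totals. In Jurkat they were PHGDH (1.35), SLC3A2 (1.12), PSPH (-1.02), ATF5 (-0.67) and SARS2 (-1.25), and in TALL-104 PPP1R15A (-1.15) and SHMT2 (-1.46).

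The single 3′ v2 library, of a further mixture of cells, has no replicate and was not tested. Its level of Nars and NARS stood above every other library in each line: 393 CPM in EL4 (others 92.2 to 270.1), 444 in IVA12 (131 to 376), 339.6 in Jurkat (49.3 to 138) and 213 in TALL-104 (35.9 to 143). In Jurkat the 3′ v2 library also held the highest TMM-scaled KARS and LARS levels, 214 and 295. The TMM factor of that sum was 0.718, which raises its levels over plain totals. The TALL-104 sum of this library held only 134 member UMIs from 41 cells, with KARS at 142. Qars went the other way in the mouse lines, with 23 in EL4 and 37.5 in IVA12, the lowest of the 7 libraries in both.

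The last comparison set the second 3′ v3 preparation (replicates 2 and 4) against the first (replicates 1 and 3). Each preparation was 1 mixture of cells, so the p-values of this comparison hold no spread between mixtures. In EL4 and IVA12 the scaling decided whether more members were called higher or lower, and in Jurkat both scalings gave more higher than lower while DESeq2 and stricter cell limits gave the reverse. With TMM, 2 members were called higher and 7 lower in EL4 (22.2% and 34.5% of 12031 genes), 4 and 6 in IVA12 (25.8% and 37.8% of 11689), 6 and 3 in Jurkat (35.1% and 24.2% of 13183) and 3 and 2 in TALL-104 (19.4% and 17.4% of 8438). With plain totals the counts were 11 and 2 in EL4 (46.3% and 13.7% of all genes), 12 and 3 in IVA12 (44.8% and 23.8%), 10 and 2 in Jurkat (44.2% and 18%) and 9 and 0 in TALL-104 (33.6% and 8.06%). Plain totals raised the median of all genes by 0.46, 0.39, 0.22 and 0.32 on the log2 scale in the 4 lines, and the members with it. With TMM the members' median log2 fold change and that of all genes tested were -0.07 and -0.12 in EL4, -0.07 and -0.14 in IVA12, 0.07 and 0.22 in Jurkat and 0.20 and 0.04 in TALL-104. The members as a set stood close to the median of all genes, and what follows is about how they differed among themselves.

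The make-up of the libraries moved with the preparation. Ribosomal protein genes went from 27.3% and 29.4% to 25.3% and 25.7% of UMIs in EL4, from 24.2% and 25.6% to 23.6% and 23.2% in IVA12, from 21% and 21.5% to 23.4% and 23.2% in Jurkat and from 21.9% and 22.1% to 14.5% and 13.7% in TALL-104, first to second preparation. The lines' own markers outside the rule moved too. The 5 EL4 markers summed to 2146 and 2072 and then 1253 and 1188 CPM, with 4 of 5 lower, and the 6 IVA12 markers to 480.5 and 521 and then 225 and 226 in IVA12, with 3 of 4 tested lower. In the human lines the markers outside the rule were mostly higher. The 5 Jurkat markers summed to 1523 and 1596 and then 2221 and 2502 in Jurkat, with 4 of 5 higher, and the 5 TALL-104 markers to 449 and 431 and then 612 and 619.9 in TALL-104, with 3 of 4 tested higher. The 3 TALL-104 genes that the rule used (NKG7, CST7 and CD8A) summed to 4031 and 3699 and then to 2592 and 2489. These genes chose the cells, so their sums describe the chosen cells only and cannot test a change. Of the other line's markers, the 5 of EL4 summed to 21.1 and 38.6 and then 8.93 and 15.3 in IVA12 cells, with 4 of 5 lower, and the 6 of IVA12 to 6.96 and 19.4 and then 3.53 and 8.20 in EL4 cells, with 1 of 4 tested lower. The 5 of Jurkat summed to 154 and 163 and then 86.6 and 130.4 in TALL-104 cells, and the 5 TALL-104 markers to 16.3 and 13.2 and then 17.8 and 12 in Jurkat cells. The part of these shifts in the member values was not tested.

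Rars and Hars fell and Kars and Iars rose in the second preparation in both mouse lines, with either scaling. Rars was at 120.4 and 129 in the first preparation and 72.6 and 78.4 in the second in EL4 (log2 fold change -0.72, SE 0.08, adjusted p = 0.000343). In IVA12 it was at 154 and 178 in the first preparation and 95.3 and 98.6 in the second (log2 fold change -0.78, SE 0.09, adjusted p = 0.000207). With plain totals the log2 fold changes were -0.26 and -0.40, both still called. Hars, the histidyl enzyme of class II, was at 98.6 and 99.4 in the first preparation and 58.8 and 62.1 in the second in EL4 (log2 fold change -0.71, SE 0.07, adjusted p = 0.000235). Its IVA12 levels were 114 and 119 in the first preparation and 58.3 and 61.6 in the second (log2 fold change -0.96, SE 0.08, adjusted p = 3.84e-05). The 2 libraries of a preparation were close to each other, and the preparations did not overlap.

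Mars was at 60.3 and 62 in the first preparation and 37.8 and 41.6 in the second in EL4 (log2 fold change -0.62, SE 0.07, adjusted p = 0.000517) and 109 and 109 in the first preparation and 62.7 and 63.3 in the second in IVA12 (log2 fold change -0.79, SE 0.07, adjusted p = 6.13e-05). Sars was at 229 and 299 in the first preparation and 171 and 181 in the second in EL4 (log2 fold change -0.59, SE 0.13, adjusted p = 0.0071) and 261 and 343 in the first preparation and 193 and 217 in the second in IVA12 (log2 fold change -0.56, SE 0.13, adjusted p = 0.00681). Both were lower in the second preparation with TMM, but with plain totals Sars was called in neither line (-0.12 and -0.18) and Mars not in EL4 (-0.16). Dars (-0.30 in EL4, -0.41 in IVA12) and Gars (-0.27 and -0.34) were also lower with TMM, and Qars was called in EL4 (-0.37), its IVA12 value being -0.19 (adjusted p = 0.0681). Without 3′ v3 replicate 2 the members called lower were 3 in EL4 and 3 in IVA12, and Dars, Gars, Qars and Sars were not among those of EL4, nor Dars, Gars and Sars among those of IVA12. With plain totals Dars, Gars and Qars in EL4 and Gars in IVA12 changed sign, and Gars in EL4 was called higher (0.20, adjusted p = 0.0444).

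Kars was at 106 and 88.2 in the first preparation and 148 and 145 in the second in EL4 (log2 fold change 0.59, SE 0.10, adjusted p = 0.00232), a difference larger than in IVA12, where it was at 90.0 and 81.3 in the first preparation and 99.4 and 103 in the second (log2 fold change 0.24, SE 0.08, adjusted p = 0.0313). The difference between the lines was itself called (0.36, SE 0.08, adjusted p = 0.0122), the 1 such call among 18 members (5.79% of 13111 genes in that direction and 5.95% in the other). The count was 6 higher and 0 lower with plain totals, 3 and 1 at 95% purity and 3 and 0 without 3′ v3 replicate 1, and the Kars difference was called in each case. It was not called without 3′ v3 replicate 2 (0.32) or 4 (0.39). Iars was at 82.1 and 76.4 in the first preparation and 92.4 and 96 in the second in EL4 (log2 fold change 0.25, SE 0.07, adjusted p = 0.0213) and 77.1 and 75.4 in the first preparation and 94.9 and 104 in the second in IVA12 (log2 fold change 0.38, SE 0.08, adjusted p = 0.0034). Eprs rose in IVA12, from 349 and 388 to 436 and 488 (log2 fold change 0.33, SE 0.09, adjusted p = 0.0167), as did Wars, from 26.2 and 29.4 to 35.4 and 32.9 (log2 fold change 0.29, SE 0.09, adjusted p = 0.0274). All of these calls held with plain totals. The count called higher in IVA12 fell from 4 to 2 without 3′ v3 replicate 2 and to 0 without replicate 4, and in EL4 it was 1 without either of them and 4 without replicate 1 or 3.

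In Jurkat the levels of AARS, CARS and YARS, as shares of UMIs, were higher in the second preparation and those of RARS and HARS lower. The median Jurkat cell held fewer UMIs there, and member UMIs per cell were not compared. AARS, the alanyl enzyme, was at 34.1 and 35.7 in the first preparation and 88.6 and 81.2 in the second (log2 fold change 1.27, SE 0.11, adjusted p = 1.78e-07), a 2.4-fold rise. CARS was at 49.2 and 46.5 in the first preparation and 86 and 83.8 in the second (log2 fold change 0.83, SE 0.11, adjusted p = 9.07e-06). YARS, the tyrosyl enzyme, was at 75.7 and 79.1 in the first preparation and 119 and 125 in the second (log2 fold change 0.66, SE 0.10, adjusted p = 5.68e-05). The preparations were well apart in each, and these 3 calls held under every alternative tried, as did those of RARS and HARS. RARS was at 104 and 98 in the first preparation and 47.1 and 48.8 in the second (log2 fold change -1.06, SE 0.12, adjusted p = 1.45e-06). HARS was at 76 and 82.1 in the first preparation and 39.5 and 47.4 in the second (log2 fold change -0.83, SE 0.12, adjusted p = 3.37e-05). The levels come from different cells of each preparation.

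The smaller Jurkat calls were less firm. MARS was at 63.6 and 55.6 in the first preparation and 76.5 and 76.1 in the second (log2 fold change 0.36, SE 0.11, adjusted p = 0.0141), and IARS (0.33) and QARS (0.33) were also higher. None of these 3 was called with DESeq2, with a minimum of 2000 UMIs a cell or in cells over 95% human, where QARS was -0.0039 (adjusted p = 0.981). VARS was at 48.6 and 42.8 in the first preparation and 35.7 and 36.6 in the second (log2 fold change -0.33, SE 0.13, adjusted p = 0.0382) and was not called with plain totals (-0.12) or without 3′ v3 replicate 1 (-0.24), 2 (-0.32) or 4 (-0.35). Without 3′ v3 replicate 4 there were 3 members higher and 2 lower. DESeq2 gave 3 higher and 5 lower. With a minimum of 2000 UMIs a cell there were 3 higher and 9 lower, and in cells over 95% human 3 and 9. The second preparation kept 140 and 393 Jurkat cells under the mitochondrial limit, with a median of 10407.5 and 9834 UMIs, where the first kept 1499 and 3035 with 17703 and 17940. With the limit at 15% the counts were 6 higher and 5 lower, and the AARS log2 fold change was 1.24. The part of cell condition in these differences was not tested.

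In TALL-104 CARS, KARS and LARS were called higher in the second preparation and RARS and SARS lower, all on few UMIs. CARS was at 41.7 and 46.6 in the first preparation and 64 and 66.5 in the second (log2 fold change 0.55, SE 0.21, adjusted p = 0.0395), and KARS at 60.1 and 56.5 in the first preparation and 82.8 and 84.8 in the second (log2 fold change 0.54, SE 0.19, adjusted p = 0.0274). LARS was at 71.2 and 88 in the first preparation and 132 and 103 in the second (log2 fold change 0.49, SE 0.18, adjusted p = 0.0341). These 3 did not overlap between preparations. RARS was at 44.8 and 39.9 in the first preparation and 18.8 and 28.3 in the second (log2 fold change -0.74, SE 0.27, adjusted p = 0.0335), from 10 to 77 UMIs a library, and SARS at 109.9 and 112 in the first preparation and 94.1 and 73.8 in the second (log2 fold change -0.45, SE 0.18, adjusted p = 0.0492). DESeq2 called 0 of the 5, and so did the limit of over 95% human UMIs, which left 3 TALL-104 cells in 3′ v3 replicate 3 and turned CARS to -0.15. The members called higher fell to 1, 0 and 1 without 3′ v3 replicates 1, 2 and 4, and those called lower to 1 without any one of the 4 libraries. Across the 4 lines RARS (Rars) was thus lower in the second preparation in each with TMM, and in all but TALL-104 (-0.43, adjusted p = 0.223) with plain totals. The lines share these 4 libraries and are not independent of each other.

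The human lines differed in 3 of these changes (Jurkat minus TALL-104, second minus first preparation). AARS rose more in Jurkat (0.92, SE 0.25, adjusted p = 0.00272), being at 36.6 and 35.2 in the first preparation and 47 and 43.8 in the second in TALL-104. SARS differed by 0.55 (SE 0.17, adjusted p = 0.0129), and was in Jurkat at 97.4 and 106 in the first preparation and 103 and 112 in the second. HARS fell further in Jurkat (-0.87, SE 0.22, adjusted p = 0.00166), being at 64.1 and 50.2 in the first preparation and 56.5 and 56.5 in the second in TALL-104. Of 10892 genes 7.09% were called in the first direction and 9.06% in the other. With plain totals, which moved the all-gene median by -0.11, the counts were 1 and 3 instead of 2 and 1, and DESeq2 called 0 and 0. In cells over 95% human none of the 3 was called, AARS being 0.71, HARS -0.60 and SARS 0.14, and that limit left 3 TALL-104 cells in 3′ v3 replicate 3. Without 3′ v3 replicate 4 no member was called, AARS being 0.94, HARS -1.05 and SARS 0.25. HARS was also lost without replicate 3 (-0.58) and SARS without replicate 1 (0.52).

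**Figure D5:**
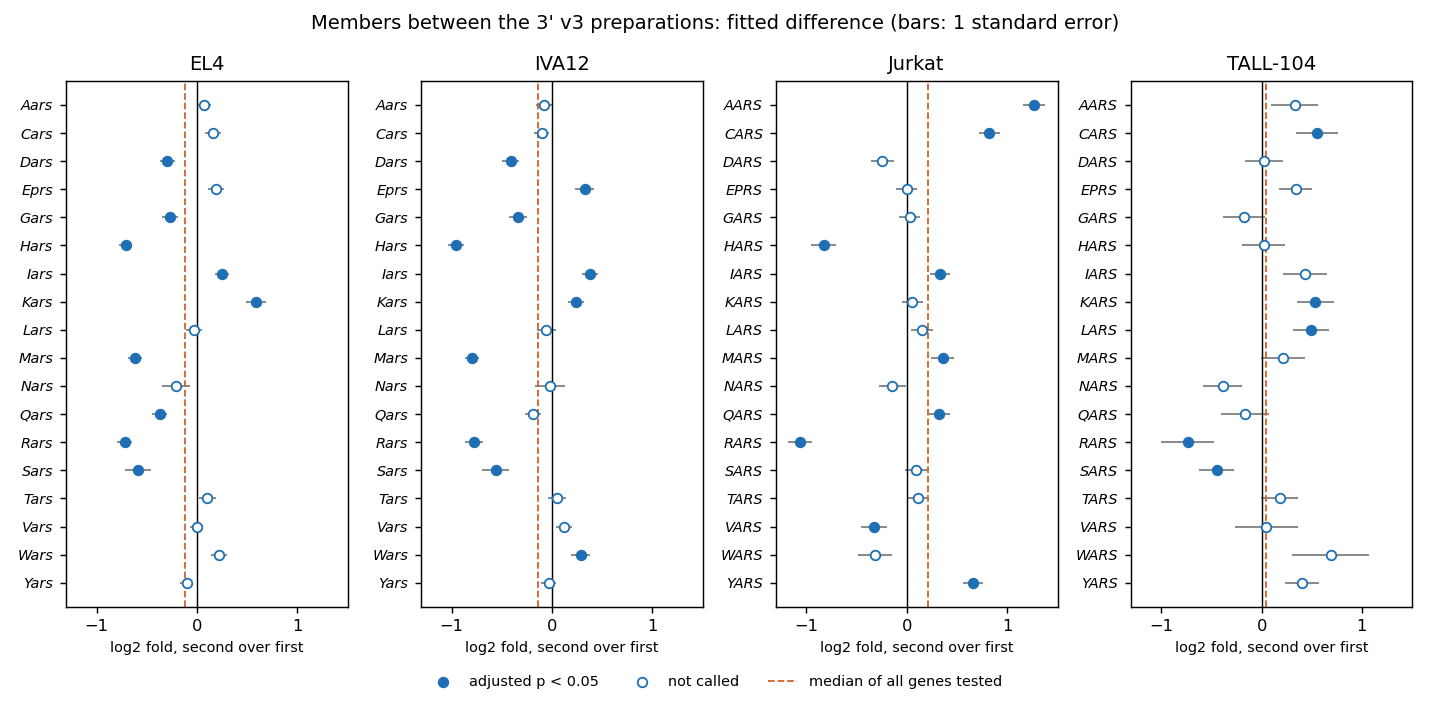
Fitted log2 fold change of the second over the first 3′ v3 preparation for the 18 members in each line (TMM scaling), with bars of 1 standard error. Filled points had an adjusted p under 0.05, the solid line marks 0 and the dashed line the median of all genes tested. Rars (RARS) lies left in every line, Hars (HARS) in all but TALL-104, and AARS and CARS lie far right in Jurkat.

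Related genes also moved with the preparation, and the lines differed in them. The scaffold genes of the complex were lower in the second preparation, 3 of 3 in EL4 (Eef1e1 -1.17, Aimp2 -0.61 and Aimp1 -0.57), 3 of 3 in IVA12 (Eef1e1 -1.01, Aimp2 -0.93 and Aimp1 -0.65), 3 of 3 in Jurkat (AIMP2 -2.02, EEF1E1 -1.56 and AIMP1 -1.28) and 2 of 3 in TALL-104 (AIMP2 -1.46 and AIMP1 -0.63), as log2 fold changes with TMM. Farsb and Farsa, the phenylalanyl subunits, were lower in EL4 (-0.70 and -0.38), IVA12 (-0.82 and -0.66) and Jurkat (-1.09 and -1.35), and the second threonyl gene was higher in these lines (Tarsl2 0.43 and 0.82, TARSL2 0.60). The mitochondrial synthetases gave 4 higher and 5 lower of 17 tested in EL4, 4 higher and 7 lower of 17 tested in IVA12, 1 higher and 7 lower of 17 tested in Jurkat and 0 higher and 0 lower of 8 tested in TALL-104. Of all genes 22.2% were called higher and 34.5% lower in EL4 and 25.8% and 37.8% in IVA12. The shares were 35.1% and 24.2% in Jurkat and 19.4% and 17.4% in TALL-104. Lars2 was higher in EL4 (1.07) and IVA12 (1.10). Yars2, Fars2 and Rars2 were lower in EL4 (-0.99, -0.93 and -0.84) and IVA12 (-1.17, -1.02 and -1.06), as were YARS2 (-1.52), FARS2 (-1.41), EARS2 (-1.15) and RARS2 (-0.95) in Jurkat.

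Of the ATF4 targets outside the synthetases, 13 of 26 were called higher and 2 lower in Jurkat (background 35.1% and 24.2%), with SLC7A11 (2.98), CHAC1 (2.95), ASNS (2.62) and VLDLR (2.39) the largest. ASNS, the asparagine synthetase and a standard readout of ATF4, was at 9.09 and 9.20 CPM in the first preparation and 56.7 and 55.8 in the second. ATF4 itself was at 167 and 179.7 and at 385 and 407 (log2 fold change 1.2), and the other largest changes among its regulators were EIF2S1 (-1.44), EIF2AK3 (1.17) and PPP1R15B (1.08). The same list gave 4 higher and 11 lower of 26 tested in EL4, with Ddit4 (-1.39), Nupr1 (-1.03) and Cebpb (-0.99) lower and Slc7a1 (0.90) higher, 7 higher and 13 lower of 26 tested in IVA12, with Slc7a1 (1.37) higher and Nupr1 (-1.25), Asns (-1.06) and Psph (-1.01) lower, and 3 higher and 4 lower of 20 tested in TALL-104, with DDIT4 (-1.67) and PYCR1 (-1.53) lower and SLC7A5 (1.03) and SESN2 (0.97) higher. Among the regulators Ppp1r15b was higher and Eif2s1 lower in EL4 (0.83 and -0.72) and IVA12 (0.89 and -0.71), Eif2ak4 and Eif2ak3 were higher there (0.51 and 0.42, 0.55 and 0.44), and TALL-104 had EIF2AK3 (1.34), PPP1R15B (1.10), EIF2AK4 (0.90) and EIF2AK2 (0.82) higher. Interferon response genes gave 0 higher and 4 lower of 8 tested in EL4 (Isg15 -1.07, Psmb8 -1.01, Psmb9 -0.78 and Irf1 -0.36). In IVA12 they gave 0 higher and 6 lower of 8 tested (Isg15 -2.84, Psmb8 -1.77, Psmb9 -1.73 and Irf1 -1.0). Jurkat gave 2 higher and 3 lower of 9 tested (GBP2 2.80, PSMB8 -1.06, ISG15 -1.03 and PSMB9 -0.96) and TALL-104 3 higher and 1 lower of 7 tested (TAP1 0.83, GBP2 0.79 and ISG15 -0.44).

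The scaling changed these list counts as well. Of all genes, plain totals called 46.3% higher and 13.7% lower in EL4 and 44.8% and 23.8% in IVA12. The shares were 44.2% and 18% in Jurkat and 33.6% and 8.06% in TALL-104. With plain totals the members of each list called higher and lower in the second preparation were, for the scaffold genes, 0 and 1 in EL4, 0 and 3 in IVA12, 0 and 3 in Jurkat and 0 and 1 in TALL-104. For the mitochondrial synthetases they were 11 and 3 in EL4, 8 and 4 in IVA12, 2 and 5 in Jurkat and 2 and 0 in TALL-104. For the ATF4 targets they were 15 and 4 in EL4, 13 and 10 in IVA12, 17 and 1 in Jurkat and 5 and 2 in TALL-104, so that in EL4 and IVA12 more were higher than lower where TMM gave the reverse. For the ATF4 regulators they were 7 and 1 in EL4, 5 and 1 in IVA12, 5 and 1 in Jurkat and 6 and 0 in TALL-104, and for the interferon response genes 2 and 3 in EL4, 0 and 5 in IVA12, 2 and 3 in Jurkat and 3 and 0 in TALL-104. In EL4 the values of Farsa, a phenylalanyl subunit gene, and Irf1 changed sign with plain totals. The Jurkat count of ATF4 targets kept its direction with both scalings, and more of all genes were also higher than lower with both. These lists were not refitted with DESeq2 or stricter cell limits, and the part of ATF4 in the member values was not tested.

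Of the ATF4 targets 9 of 25 tested differed between the human lines in their change from the first to the second preparation, 9 higher and 0 lower (7.09% and 9.06% of all genes, and 7 and 0 members of the list with plain totals), with ASNS (3.05), DDIT4 (1.76), PHGDH (1.39) and SESN2 (1.36) all more positive in Jurkat. Of the regulators ATF4 (0.84), EIF2S1 (-1.55) and EIF2AK2 (-0.84) were called. The scaffold genes EEF1E1 (-1.06) and AIMP1 (-0.65) and the subunit FARSA (-0.82) had more negative changes in Jurkat than in TALL-104. Among the interferon response genes GBP2 (2.00), TAP1 (-1.03), PSMB8 (-0.99) and PSMB9 (-0.68) led. Between the mouse lines 5.79% of 13111 genes were called higher and 5.95% lower. There the interferon response genes gave 6 higher and 0 lower of 9 tested, with Isg15 (1.73), Ifit1 (1.44), Psmb9 (0.95) and Psmb8 (0.75) having more positive changes in EL4 than in IVA12, and the ATF4 targets 4 higher and 6 lower of 26 tested, led by Stc2 (-0.64), Psph (0.54), Slc7a11 (-0.53) and Slc7a1 (-0.46). With plain totals these targets gave 8 higher and 4 lower, the reverse balance.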

How the data were processed

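A mixture of 4 cell lines was measured on 10x Chromium. To make the deposited UMI counts, the authors sampled the reads down, counted them with Cell Ranger 3.0.2 on a joint human and mouse reference (1.2.0, builds hg19 and mm10, as the submitters' processing notes also name them) and kept every barcode, so the counts are whole, not normalized and not limited to cells. Cells were chosen and assigned as the report states, the matrix of the other labelled 3′ v2 sample (replicate 1) was not analysed here, barcodes that mixed the species beyond the 80% limit were left out and no doublet caller was run, so doublets within a species, and those of a mouse cell with a TALL-104 cell of few UMIs, can remain. UMIs were summed per line and library, and TMM was computed once per species over 14 sums. edgeR 4.0.16 (filterByExpr with a minimum count of 10, quasi-likelihood test, R 4.3.3) fitted lines with the library as a block, kits as 3′ v3 (4 libraries) against 5′ v1 (2), preparations as 2 against 2, and differences between lines as interactions. The 3′ v2 library entered the line fits only. Benjamini-Hochberg adjustment ran over all genes tested, a call had an adjusted p under 0.05, and SE was the log2 fold change divided by the root of F. Scripts were tested on simulated data with known changes.

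The members and lists were chosen with earlier results of these data known. Every called member was to be named, the 8 with the largest log2 fold change where more were called in a direction, with values by library for the 4 largest in each direction, and of each other list the 4 called genes with the largest change, except some genes that are not reported here. Library numbers are paired across lines by construction, since the lines of a library were captured together. Deviations of same-numbered sums from their group means correlated at 0.82 to 0.85 between the mouse lines with 3′ v3 and at 0.42 to 0.61 between the human lines, and at 0.33 and 0.037 with 5′ v1. The 3′ v3 group means spanned both preparations, so these values include any change between preparations common to both lines. With 2 libraries, as for 5′ v1, both must give the same value. Alternatives were plain totals, DESeq2 1.42.0, no filter on low counts, a mitochondrial limit of 15%, a minimum of 2000 UMIs, a purity of 95%, removal of cells with unusual UMIs or of mitochondrial genes, no library block, single kits or preparations, and each library left out. The bound given for a count of 0 covers counting error only. The motif search of promoters was not made, as no sequences were used here.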

Additional observations from a re-analysis of the deposited data

Results flagged for a closer look

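Among 72 groups of 4 3′ v3 libraries (18 members in each of 4 lines), 2 held a library far from the other 3 by Dixon's test at the 95% level. Chance flags about 1 in 20 groups drawn from one population, which groups that span both preparations are not. NARS in TALL-104 was at 143 CPM in 3′ v3 replicate 3, against 90.6, 86.6 and 95.7 in replicates 1, 2 and 4. TARS in TALL-104 was at 77.4 in replicate 1, against 117, 117 and 112 in replicates 2, 3 and 4. Replicate 3 is the TALL-104 sum with the highest share of mouse UMIs, and its part in the NARS level was not tested.

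The tests of a difference between lines gave 13 further results, each as a log2 difference. From 5′ v1 to 3′ v3, the EL4 minus IVA12 difference rose for Kars (1.45), Dars (0.92), Rars (0.83), Hars (0.80), Lars (0.75), Vars (0.57), Tars (0.42) and Mars (0.41), and the Jurkat minus TALL-104 difference for CARS (1.93). From the first to the second preparation, the line difference changed for Kars in the mouse lines (0.36) and for AARS (0.92), SARS (0.55) and HARS (-0.87) in the human lines.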

How the results depend on the processing

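Over the alternatives, members called in the main fits kept direction and side of the threshold in 1060 of 1264 cases, kept only direction in 198 and changed sign in 6. Values of members not called there were not counted. The cause of a change was not tested. Between the lines, without the replicate block EL4 against IVA12 gave 1 higher and 10 lower and Jurkat against TALL-104 9 higher and 0 lower, and 3′ v3 libraries alone gave 2 higher in EL4. Plain totals gave, for the preparations, 11 higher and 2 lower in EL4, 12 and 3 in IVA12, 10 higher in Jurkat and 9 and 0 in TALL-104, changed the signs of Dars (0.17), Gars (0.20) and Qars (0.092) in EL4 and Gars (0.038) in IVA12, and left 3 higher for kits in Jurkat. DESeq2 gave 8 higher and 1 lower for kits in IVA12 and, for the preparations, 7 and 4 in EL4, 3 and 5 in Jurkat and 0 and 0 in TALL-104. Against 5′ v1, the first preparation alone gave 14 and 2 in IVA12, 15 and 1 in Jurkat and 1 and 2 in TALL-104, and the second 1 lower in EL4, 13 and 2 in IVA12, 13 and 1 in Jurkat and 3 higher in TALL-104. At 2000 UMIs Jurkat had 2 higher for kits and 3 higher and 9 lower for preparations, and TALL-104 0 higher. At 95% purity they had 2 for kits, 3 and 9, and 0 and 0, with QARS at -0.0039 in Jurkat and CARS at -0.15 in TALL-104. A mitochondrial limit of 15% gave 5 lower in Jurkat and no filter on low counts 1 lower in TALL-104.

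Leaving out 1 library at a time gave 1 higher and 11 to 12 lower for EL4 against IVA12 and 8 to 11 higher and 0 lower for Jurkat against TALL-104. For kits it gave 4 to 11 higher and 0 lower in EL4, 0 to 4 higher and 0 lower in IVA12, 0 to 5 higher and 0 lower in Jurkat and 0 higher and 0 lower in TALL-104. For preparations it gave 1 to 4 higher and 3 to 8 lower in EL4, 0 to 4 higher and 3 to 8 lower in IVA12, 3 to 6 higher and 2 to 4 lower in Jurkat and 0 to 4 higher and 1 lower in TALL-104. A lone library left in a group is assumed to vary like the other group.

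For the differences between lines, the alternatives were chosen after seeing the data. For kits DESeq2 gave 1 lower in the mouse lines. For preparations plain totals gave 6 higher in the mouse lines and 1 higher and 3 lower in the human lines, DESeq2 0 and 0 in the human lines, and 95% purity 3 higher and 1 lower in the mouse and 0 and 0 in the human lines. Leaving out 1 library gave 6 to 8 higher and 0 lower for kits in the mouse and 0 to 2 higher and 0 lower in the human lines, and for preparations 0 to 3 higher and 0 lower and 0 to 2 higher and 0 to 1 lower. The TALL-104 sums held 118 to 2412 member UMIs, and the part of depth in their calls was not tested.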
